A study of Mus musculus with 6 samples.

Results

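The small nucleolar RNA features described here are the names beginning with Snord or Snora and a number in the expression tables of mouse bone marrow (BM) regulatory T cells (Tregs), kept where all 3 naive libraries held reads. This rule took 76 of 114 such names, in tables of 36930 features. They comprise 49 of 76 C/D features (Snord) and 27 of 38 H/ACA features (Snora). Because the rule uses the naive values, every comparison of these members between CML and naive Tregs is a description and carries no test, and the rule favours features that happened to be high in the naive libraries. The 5 members with the lowest naive values were Snord1c, Snord90, Snora3, Snord72 and Snora34, whose lowest naive value lay between 1.46 and 1.74 RPKM (reads per kilobase of feature in a library scaled to 1000000 reads). Just outside, Snord53 was listed at 39.7, 0 and 1.51 RPKM in naive replicates 1 to 3, and Snord42a at 0, 10.1 and 22.8 RPKM. Of the 38 names left out, 16 had no reads in any library, 17 had reads in 1 or 2 naive libraries and 5 in CML libraries only.

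Tregs were sorted from the BM of mice with chronic myeloid leukemia (CML) and of naive mice without leukemia, with 3 mice and 3 libraries in each group. Every mouse, control or leukemic, was of the strain and genotype Foxp3-DTR-GFP, in which the Foxp3 locus drives the human diphtheria toxin receptor and GFP, and was labelled as 8 weeks of age. Leukemia was induced in non-irradiated recipients of that strain by intravenous injection of lineage-negative, Sca-1+, c-kit+ BM cells carrying a BCR-ABL1-GFP retrovirus, so that leukemic cells carried GFP as well. The time from induction to sorting is not given for these libraries in the sources used here.

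Small nucleolar RNAs are stable noncoding RNAs that work in the nucleolus as protein complexes. C/D RNAs pair with ribosomal RNA and direct the methyltransferase fibrillarin to a ribose, whereas H/ACA RNAs direct the pseudouridine synthase dyskerin to a uridine, and a few members of both classes are needed for cleavage of the ribosomal RNA precursor. Most are cut from introns of host genes, many of which encode ribosomal proteins. The library kit primes on poly(A) tails, which mature small nucleolar RNAs lack, so mature RNA, host precursor and retained intron cannot be told apart in these values. In bulk RNA, less RNA per cell and fewer cells with that RNA cannot be told apart either.

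Shown first are the sequences of the C/D members with most reads. These are Snord15b at chr7:99479563-99479707 and Snord15a at chr7:99482785-99482932, both on the minus strand inside Rps3, and Snord17 at chr2:144265979-144266216 on the minus strand inside Snx5. All positions are of the mouse build GRCm38. Positions and sequences shown here are GENCODE spans, whereas the values belong to RefSeq features, whose lengths can differ. The span shown is 238 bases for Snord17 and 138 for Snora34, against RefSeq lengths of 221 and 118. For Snord15b and Snord15a the lengths are equal. In C/D sequences, capitals mark the box C letters TGATGA within the first 15 bases and the box D letters CTGA within the last 15 bases, where present.
Snord15b: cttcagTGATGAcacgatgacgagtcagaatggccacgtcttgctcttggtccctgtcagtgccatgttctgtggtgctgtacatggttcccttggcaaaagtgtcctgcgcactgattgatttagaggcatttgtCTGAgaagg
Snord15a: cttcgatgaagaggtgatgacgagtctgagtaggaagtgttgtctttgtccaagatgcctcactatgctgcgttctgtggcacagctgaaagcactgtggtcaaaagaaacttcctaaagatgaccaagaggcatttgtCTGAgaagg
Snord17: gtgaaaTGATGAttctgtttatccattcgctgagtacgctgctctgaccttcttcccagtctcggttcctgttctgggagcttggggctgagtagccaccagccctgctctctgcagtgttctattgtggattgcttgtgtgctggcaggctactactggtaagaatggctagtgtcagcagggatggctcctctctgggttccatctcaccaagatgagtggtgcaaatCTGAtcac
The same marking is used for the 4 members of the Rpl13a gene, shown because they share 1 host and differ in their values, at chr7:45127382-45127464, chr7:45126864-45126947, chr7:45126601-45126670 and chr7:45126346-45126435 on the minus strand, and for Snord61 at chrX:57391449-57391519 on the minus strand inside Rbmx, which had no read in any CML library.
Snord32a: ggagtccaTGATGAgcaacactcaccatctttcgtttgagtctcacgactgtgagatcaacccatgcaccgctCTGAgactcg
Snord33: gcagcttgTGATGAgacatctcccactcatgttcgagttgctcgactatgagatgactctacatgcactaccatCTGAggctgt
Snord34: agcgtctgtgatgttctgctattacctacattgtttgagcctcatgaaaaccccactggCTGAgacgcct
Snord35a: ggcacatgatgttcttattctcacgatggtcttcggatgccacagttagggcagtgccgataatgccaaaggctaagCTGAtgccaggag
Snord61: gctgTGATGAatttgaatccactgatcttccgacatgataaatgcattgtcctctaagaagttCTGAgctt
For H/ACA members, capitals mark the first ANANNA letters in the middle of 3 equal parts of the sequence (the H box form) and ACA 3 bases before the end. Shown are Snora21 at chr11:97781639-97781775 inside Rpl23 and Snora7a at chr6:115807975-115808114 inside Rpl32, among the highest; Snora34 at chr15:98519716-98519853 inside Kansl2, with no CML read; and the near-identical pair Snora73a and Snora73b at chr4:132352775-132352979 and chr4:132352322-132352526 inside Rcc1, all on the minus strand.
Snora21: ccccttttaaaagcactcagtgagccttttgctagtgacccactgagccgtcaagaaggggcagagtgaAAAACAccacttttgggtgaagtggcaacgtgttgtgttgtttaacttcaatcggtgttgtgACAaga
Snora7a: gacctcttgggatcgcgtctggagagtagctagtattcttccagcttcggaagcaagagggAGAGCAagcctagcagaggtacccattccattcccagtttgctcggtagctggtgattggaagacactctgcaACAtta
Snora34: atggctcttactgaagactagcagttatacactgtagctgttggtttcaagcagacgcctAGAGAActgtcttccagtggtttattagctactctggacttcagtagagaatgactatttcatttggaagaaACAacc
Snora73a: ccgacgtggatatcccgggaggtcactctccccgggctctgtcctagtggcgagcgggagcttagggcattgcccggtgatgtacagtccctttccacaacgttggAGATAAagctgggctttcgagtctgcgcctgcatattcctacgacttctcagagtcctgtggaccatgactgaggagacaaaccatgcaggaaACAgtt
Snora73b: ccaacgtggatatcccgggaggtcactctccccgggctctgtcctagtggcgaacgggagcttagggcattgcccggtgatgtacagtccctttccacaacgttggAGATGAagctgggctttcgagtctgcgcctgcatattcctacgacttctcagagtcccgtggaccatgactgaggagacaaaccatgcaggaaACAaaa
These letters were searched on the transcribed strand alone, in sequences of 48 of 49 C/D and 24 of 27 H/ACA members. A box that runs outside the searched window is left unmarked, as for the tgatga of Snord15a. TGATGA was present near the start of 26 of 48 C/D sequences and CTGA near the end of 45 of 48. Both together were present in 25, or 52.1%, against 0.00913% of 32851 promoter windows of 85 bases from RefSeq. Among 24 H/ACA sequences, 22 held ANANNA in that middle part and 20 held the terminal ACA. Both were found in 18, or 75%, against 0.892% of promoter windows of 132 bases. The boxes define the classes, so these shares describe the annotated sequences and carry no test. Snora73a and Snora73b were 96.6% identical, Snord14c and Snord14d 97.7%, and Snord1b and Snord1c 97.4%, so the split of reads within each of these pairs is uncertain. Snord15a and Snord15b were 65.6% identical.

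Depth differed widely and bears on every value near 0. Reads per library, estimated from the steps between low values, were 7613376, 829201 and 2286147 in CML replicates 1 to 3, and 5188390, 8771691 and 9751341 in naive replicates 1 to 3. For a feature of 80 bases, 3 reads were worth 45.2 RPKM in CML replicate 2 and 16.4 RPKM in CML replicate 3, but at most 7.23 RPKM in the other libraries. The libraries carried Treg transcripts: the 6 Treg markers, Foxp3 among them, were above 0 in all 6 libraries and summed to 1418 to 2005 RPKM in CML and 1414 to 1607 RPKM in naive Tregs. Transcripts of other BM cells were also present. The 6 erythroid markers summed to 122, 35.6 and 204 RPKM in CML replicates 1 to 3 and to 5.01 to 29.6 RPKM in naive libraries. The 6 neutrophil markers summed to 8.77, 202 and 202 RPKM in CML replicates 1 to 3 and to 23.5 to 51.5 RPKM in naive libraries, with 3 markers at 0 in CML replicate 1 and 2 in naive replicate 1. The B cell markers summed to at most 7.28 RPKM in any library, with at least 2 of 3 at 0 in each. The part of these cells in the results below was not tested.

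Reads on C/D features were fewer in every CML library than in any naive library. All 49 members together took 578, 569 and 648 RPM (reads in a library scaled to 1000000 reads) in CML replicates 1 to 3 and 1025, 915 and 952 in naive replicates 1 to 3. The means were 599 ± 43.2 in CML and 964 ± 56.2 in naive Tregs (SD, n = 3 each), a ratio of 0.621 that ranged from 0.595 to 0.641 when any 1 library was left out. Snord15b alone held 49.4% to 57.4% of these reads. Without it, the other 48 C/D members summed to 247, 288 and 299 RPM in CML and 491, 423 and 449 in naive Tregs, with no overlap and a ratio of 0.611. The 95% Poisson intervals, which cover counting error only, ended at 623 in CML replicate 2 and 682 in CML replicate 3 and began at 895 in naive replicate 2.

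H/ACA reads were also fewer on average, but the groups overlapped. The 27 members took 109, 174 and 182 RPM in CML replicates 1 to 3, and 296, 305 and 176 in naive replicates 1 to 3. The means were 155 ± 39.7 and 259 ± 71.8 (SD, n = 3 each), a ratio of 0.598, with naive replicate 3 inside the CML range. Left out singly, the libraries gave ratios from 0.516 without naive replicate 3 to 0.686 without CML replicate 1. Naive replicate 3 had the lowest naive value for 18 of 27 H/ACA members but for 11 of 49 C/D members.

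**Figure D1:**
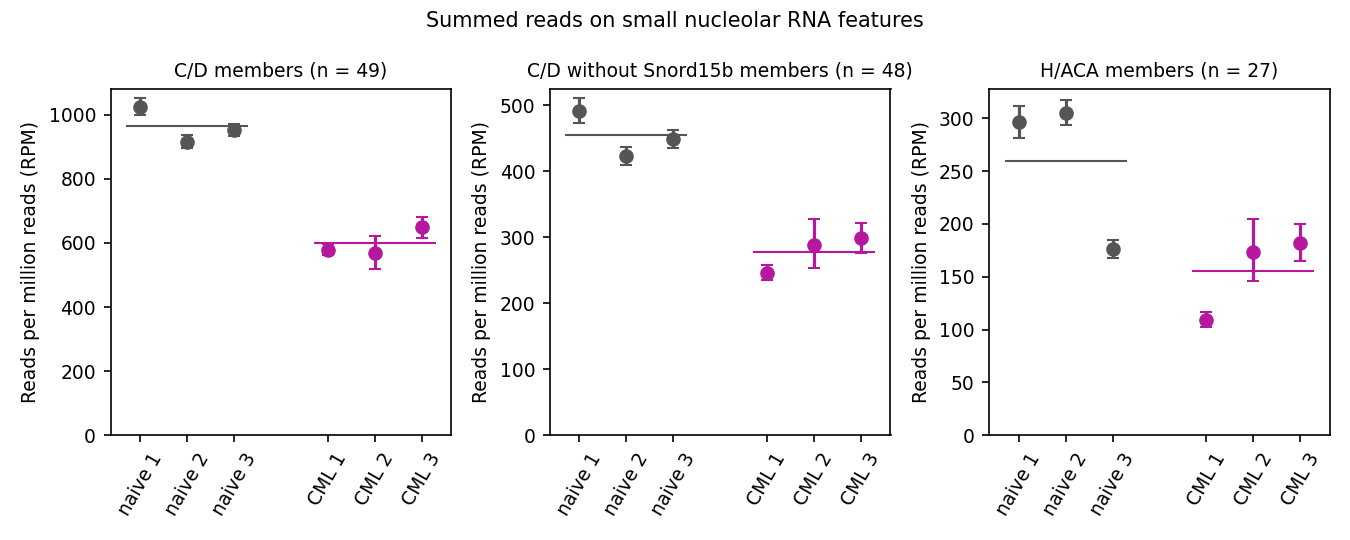
Summed reads in RPM (vertical axes, from 0) on C/D members, C/D members without Snord15b, and H/ACA members in each library, with 95% Poisson intervals and lines at the group means. The 3 CML libraries (569 to 648) lie below the 3 naive libraries (915 to 1025) for C/D members, whereas naive replicate 3 (176) lies within the CML range (109 to 182) for H/ACA members.

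Single members followed the class sums to different degrees. Among C/D members, 15 of 49 (30.6%) were lower in every CML library than in any naive library and 0 were higher. Among H/ACA members, 6 of 27 (22.2%) were lower and 0 higher. The share lower was 12.2% and the share higher 4.84% over the 13923 features tested. Of these, 13158 also met the same rule on naive reads, and 12.9% of them were lower. The CML mean was below the naive mean for 44 C/D and 25 H/ACA members. On the log2(RPKM + 1) scale, on which a fold is understated for low features, the median CML minus naive difference was -1.07 over C/D members (quartiles -1.77 and -0.48) and -0.89 over H/ACA members (quartiles -1.64 and -0.55), against -0.18 over all features tested. Features lacking CML reads were also set at log2 of their floor (3 reads over the group) over their naive mean, without the added 1. The medians on this mixed scale were -1.002 and -0.89. By limma over all features, 24 (0.172%) passed an adjusted p of 0.05 with a fold of 1.5, and 0 of 76 members did. At an unadjusted p of 0.05, 9.68% of all features were called. Since members were selected on naive reads, no such count is given for them, and nothing is read from their other counts.

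Members were also split at a naive mean of 50 RPKM. The 19 C/D members with a naive mean of at least 50 RPKM had a median difference of -0.72, a median ratio of means of 0.629 and 7 lower in every CML library. The 30 C/D members below 50 RPKM had a median difference of -1.61 and 8 lower. For H/ACA members the medians were -0.69 over 10 members at 50 RPKM or more, 3 of them lower, and -0.99 over 17 members below it, 3 of them lower. Among tested features meeting the naive rule, 18.8% of the 2243 at 50 RPKM or more were lower in every CML library, as were 11.7% of the 10915 below it. The median ratios of means were near 0.915 in both. Summed over the members below 50 RPKM, RPM values overlapped between groups: C/D members gave 25.2, 19.3 and 44.2 in CML and 45.9, 34.1 and 47.8 in naive Tregs, and H/ACA members 14.6, 38.6 and 35.9 against 48.2, 52.2 and 28.7. The ratios of these sums were 0.694 and 0.690, nearer to 1 than the 0.621 and 0.598 of all members, whereas the log2 medians lay farther from 0 below 50 RPKM.

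**Figure D2:**
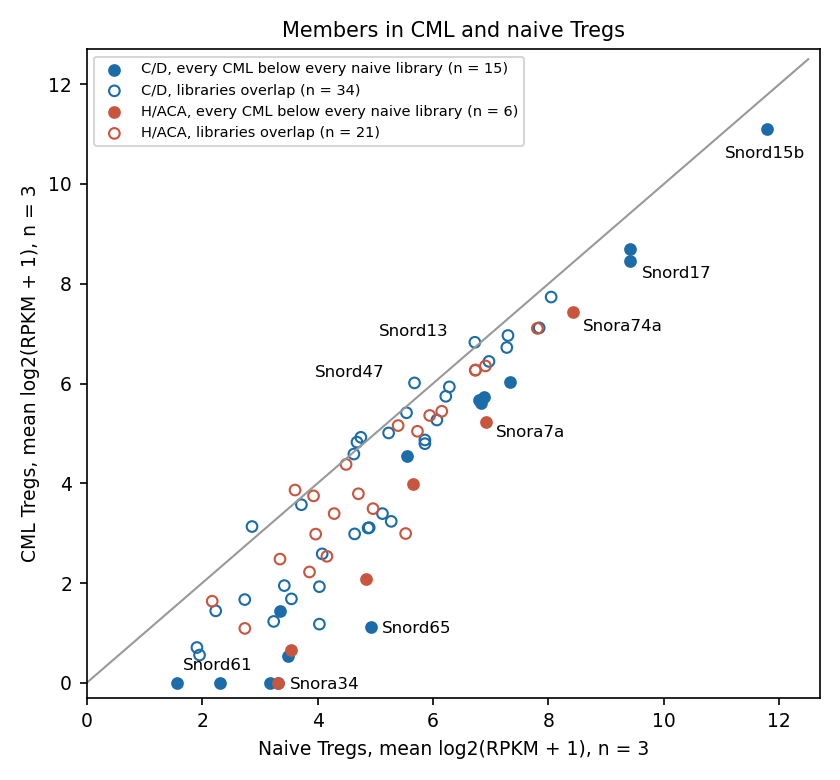
Mean log2(RPKM + 1) of each of the 76 members in naive Tregs (horizontal) and CML Tregs (vertical), n = 3 libraries each, with the line of equal values. Filled points are the 15 C/D and 6 H/ACA members whose every CML value lay below every naive value; most members lie under the line.

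Snord15b, a C/D RNA that overlaps an exon of a noncoding transcript of the ribosomal protein gene Rps3, had the highest level of all members. Its values were 2288, 1938 and 2410 RPKM in CML replicates 1 to 3 and 3682, 3390 and 3470 RPKM in naive replicates 1 to 3, from 233 reads in the shallowest library to 4907 in the deepest. No CML value reached a naive value, and the ratio of means was 0.629. Its neighbour Snord15a measured 347, 489 and 420 RPKM in CML and 798, 688 and 576 RPKM in naive Tregs, again without overlap, with a ratio of 0.609. Snord17, in an intron of the sorting nexin gene Snx5, gave closely grouped values of 355, 333 and 358 RPKM in CML and 709, 707 and 619 RPKM in naive Tregs. Its ratio was 0.514, and the SDs were 13.9 and 51.7 RPKM.

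Next to these by mean level, Snord33, Snord22 and Snord14d overlapped between groups. Snord22, from the noncoding host gene Snhg1, was at 74.0, 220 and 160 RPKM in CML and 312, 225 and 168 RPKM in naive Tregs. Snord14d, from the heat shock protein gene Hspa8, was at 90.6, 139 and 151 RPKM in CML and 128, 123 and 242 RPKM in naive Tregs. For Snord22 and Snord14d, the highest value was in a naive library, but single CML libraries lay above single naive ones.

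The Rpl13a gene, which encodes a protein of the large ribosomal subunit, holds 4 C/D members, of which 3 were separated between groups. Snord34 was at 69.7, 36.5 and 106 RPKM in CML and 190, 123 and 177 RPKM in naive Tregs, a ratio of 0.434. Snord32a was at 48.6, 59.6 and 37.8 RPKM in CML and 114, 87.3 and 146 RPKM in naive Tregs, a ratio of 0.421. Snord35a was at 28.0, 13.6 and 29.5 RPKM in CML and 43.3, 52.5 and 42.6 RPKM in naive Tregs, a ratio of 0.513. These 3 lie in introns of every annotated transcript, and their CML replicate 2 values rest on 2, 4 and 1 reads. Snord33, which overlaps an exon of a noncoding Rpl13a transcript, did not separate: it was at 216, 235 and 187 RPKM in CML and 282, 165 and 391 RPKM in naive Tregs. The host Rpl13a itself was at 622, 654 and 873 RPKM in CML and 950, 1095 and 790 RPKM in naive Tregs (ratio 0.758, adjusted p = 0.557 by limma), so the groups overlapped.

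Of the H/ACA members, Snora74a had the highest naive level, with 142, 158 and 228 RPKM in CML and 371, 380 and 284 RPKM in naive Tregs. The groups did not overlap and the ratio was 0.510. Snora7a, which overlaps an exon of a protein-coding Rpl32 transcript, showed a wider gap. It was at 33.6, 28.0 and 50.9 RPKM in CML and 112, 150 and 102 RPKM in naive Tregs, a ratio of 0.309. Its CML replicate 2 value rests on 3 reads, and reads of that host transcript could be counted for it. Snora21, within Rpl23, was at 104, 160 and 154 RPKM in CML and 309, 272 and 132 RPKM in naive Tregs. There, naive replicate 3 lay below 2 of 3 CML libraries, and the same was seen for Snora81 of the translation factor gene Eif4a2, at 37.6, 95.6 and 123 RPKM in CML and 135, 145 and 60.03 RPKM in naive Tregs. Snora73a and Snora73b, a vertebrate H/ACA pair implicated in ribosomal RNA processing, were at 72.5 to 78.8 and 76.8 to 88.2 RPKM in CML. In naive Tregs, Snora73a was at 125.045, 119 and 78.5 RPKM and Snora73b at 133, 171 and 74.5 RPKM.

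**Figure D3:**
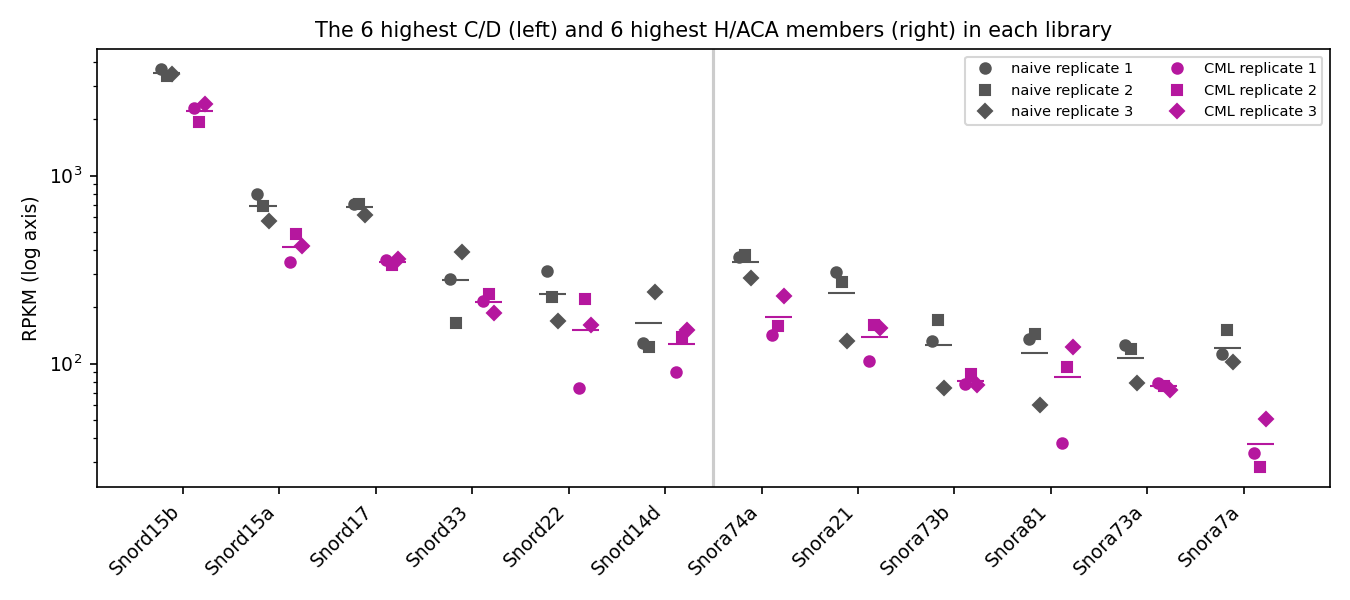
RPKM (log axis) of the 6 C/D and the 6 H/ACA members with the highest mean over the 6 libraries; each marker is a library, its shape the replicate number, and short lines are group means. Snord15b, Snord15a, Snord17, Snora74a and Snora7a show no overlap between the 3 naive and the 3 CML libraries. Naive replicate 3 lies within or below the CML values for Snora21, Snora73a, Snora73b and Snora81.

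Snhg12, a noncoding host gene, holds 3 H/ACA members and 1 C/D member. Snora61 was at 8.47, 0 and 7.06 RPKM in CML and 46.6, 18.4 and 24.8 RPKM in naive Tregs, without overlap but from 4, 0 and 1 CML reads. Snora16a was at 28.0, 70.9 and 32.2 RPKM in CML and 87.9, 65.4 and 38.5 RPKM in naive Tregs. Snora44 was at 8.98, 51.5 and 67.3 RPKM in CML and 62.6, 58.5 and 38.6 RPKM in naive Tregs. The C/D member Snord99 was at 28.1, 43.1 and 15.6 RPKM in CML and 31.0, 81.4 and 73.3 RPKM in naive Tregs. Its values in CML replicates 2 and 3 rest on 2 reads each. Snora16a, Snora44 and Snord99 thus overlapped, as did Snhg12 itself, at 19.9, 13.9 and 23.1 RPKM in CML and 27.7, 20.9 and 21.0 RPKM in naive Tregs (adjusted p = 0.734 by limma).

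The largest differences came from members with few reads. Snord65, from an intron of the noncoding gene 2410006H16Rik, was at 9.22 RPKM in CML replicate 1 and at 0 in the others, against 20.3, 28.0 and 44.98 RPKM in naive Tregs, or 4 reads against 6, 14 and 25. Snord71 had 1 CML read and 7, 2 and 8 naive reads. Snord35b was at 10.6, 0 and 0 RPKM in CML and 6.65, 22.3 and 23.6 RPKM in naive Tregs, and overlapped. Snora17, which has no host gene on its strand, had 3, 0 and 0 CML reads against 3, 17 and 23 naive reads. Each of these 4 members rests on at most 7 CML reads.

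No read was seen in any CML library for 4 C/D members (Snord58b, Snord61, Snord90 and Snord92) and 1 H/ACA member (Snora34). Snora34 was at 29.4, 10.6 and 1.74 RPKM in naive Tregs, from 18, 11 and 2 reads, and against a floor of 3 reads over the CML group its naive mean was at least 5.88-fold higher. For Snord61, with 3.11, 5.52 and 26.5 RPKM from 1, 3 and 16 naive reads, that bound was 2.59-fold, and for Snord58b and Snord92 it was 2.49-fold and 1.25-fold. By a check added after seeing the data, these bounds rest on single naive libraries: that of Snora34 was 2.61-fold without naive replicate 1, and the naive mean lay under the floor for Snord58b without naive replicate 1 and for Snord61 and Snord92 without naive replicate 3. Snord90 had a naive mean under the floor, so no fold is given.

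Members without reads were most frequent in the shallowest CML library. Of the 76 members, 6, 29 and 16 had no read in CML replicates 1 to 3. At the naive mean level, 71, 32 and 55 members would have had 3 or more reads there, and of these 4, 1 and 6 had none, with up to 12.51, 5.29 and 6.94 expected reads. The members without reads in CML replicate 2 had a median of 0.773 expected reads and the highest of them 5.29, so that for most of the 29 no difference was detectable at that depth. Reads were present in all 3 CML libraries for 26 C/D and 17 H/ACA members. Over these, the median ratio of means was 0.704 (0.421 to 1.54) for C/D and 0.688 (0.297 to 1.26) for H/ACA members. All 43 small nucleolar RNA features with reads in all 3 CML libraries were among the 76 members, so none lacked reads in a naive library. CML replicates 2 and 3 were shallower than every naive library, which bears on this difference in number.

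**Figure D4:**
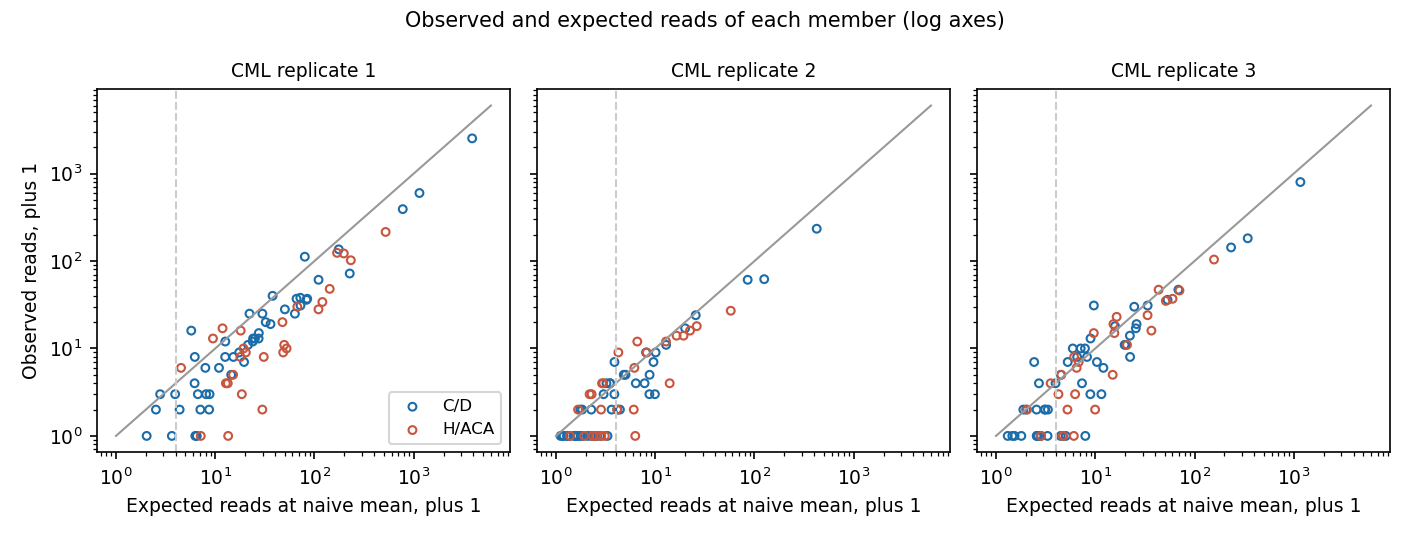
Reads observed for each member in each CML library against the reads expected there at its naive mean level, both plus 1 on log axes, with the line of equal values and a dashed line at 3 expected reads. Points under the line are members with fewer reads than at the naive level; in CML replicate 2 most members on the floor (29 without reads) lie left of the dashed line.

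The CML mean was above the naive mean for 5 C/D members (Snord13, Snord14e, Snord16a, Snord47 and Snord118) and 2 H/ACA members (Snora28 and Snora78), all of which overlapped between groups. By the difference in log2(RPKM + 1), the highest H/ACA members were Snora28, Snora30 and Snora68, and the CML means of Snora30 and Snora68 were slightly below their naive means, with ratios of 0.970 and 0.979. Snord47, from the noncoding gene Gas5, was at 28.3, 111 and 80.8 RPKM in CML and 32.6, 49.1 and 78.9 RPKM in naive Tregs, from 6 to 14 CML reads. Snord14e of Hspa8 was at 21.7, 0 and 28.8 RPKM in CML and 4.24, 5.01 and 11.3 RPKM in naive Tregs. Snora28, inside the translation factor gene Eif5, was at 17.2, 19.8 and 7.17 RPKM in CML and 15.8, 7.48 and 11.8 RPKM in naive Tregs. Its CML values rest on 16, 2 and 2 reads. A pair of C/D RNAs with genes of their own also overlapped. Of these, Snord13 was at 149, 73.8 and 129 RPKM in CML and 102, 89.6 and 126 RPKM in naive Tregs. Snord118, known as the U8 RNA, was at 23.0, 8.80 and 95.8 RPKM in CML and 46.4, 22.5 and 14.2 RPKM in naive Tregs, with 1 read in CML replicate 2.

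Position within the host gene was examined next. By the GENCODE annotation, 37 members lay in an intron of every host transcript, 34 overlapped an exon (33 of a noncoding and 1 of a protein-coding transcript), and 5 had no host on their strand. Among the 37 intronic members, 16 were lower in every CML library, with a median ratio of means of 0.513. The 5 members without any CML read were all in this set. They count as lower by construction, because the rule asks for naive reads. Snord23, Snord65 and Snord71, also among the 16, rest on few CML reads. Among the 34 that overlapped an exon, 4 were lower, with a median ratio of 0.686. The share over all tested features meeting the naive rule was 12.9%. The difference between these sets was not tested. Reads of host transcripts that hold the exon would be counted for the second set, and reads of host precursor or retained intron for both sets.

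Host genes were not used to choose the members and could be tested. The 71 members with a host lay in 54 genes, of which 49 were tested. By limma, 0 of 49 host genes passed an adjusted p of 0.05 (lowest 0.282), and 5 had an unadjusted p under 0.05, all lower in CML, a share close to the 9.68% of all features. Among these were Gas5 (log2 difference -0.60), the histone acetyltransferase complex gene Kansl2 (-1.22), the ribosomal protein gene Rplp2 (-0.62) and the noncoding gene Snhg9 (-1.90). The median host difference was -0.13, near the -0.18 of all features. Of the 49 hosts, 11 were lower and 0 higher in every CML library, beside 12.2% lower and 4.84% higher over all features tested. Of 43 C/D members with a tested host, 39 had a smaller CML to naive ratio than the host, and 18 of 23 H/ACA members did. Restricted to reads in all 6 libraries, this held for 20 of 23 C/D members, with median ratios of 0.643 for members and 0.967 for their hosts. For H/ACA members it held for 12 of 16, with 0.697 and 0.911. These comparisons with hosts carry no test, since the rule used the naive values of the members but not of the hosts. This favours lower ratios for the members. Among the 43 and 23, the 5 members without CML reads have a ratio of 0 and fall below their host by construction.

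Genes for ribosomal proteins held 24 members in 19 hosts. The median ratio of means was 0.585 for these members and 0.855 for the hosts, of which 4 were lower and 0 higher in every CML library. Over all features tested, 12.2% were lower and 4.84% higher. Rps3, the host of Snord15a and Snord15b, was at 830, 796 and 1058 RPKM in CML and 1084, 1259 and 895 RPKM in naive Tregs and overlapped (adjusted p = 0.666 by limma). Snx5, the host of Snord17, was at 239, 154 and 213 RPKM in CML and 190, 161 and 175 RPKM in naive Tregs, with a CML mean above the naive mean while Snord17 had a ratio of 0.514.

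**Figure D5:**
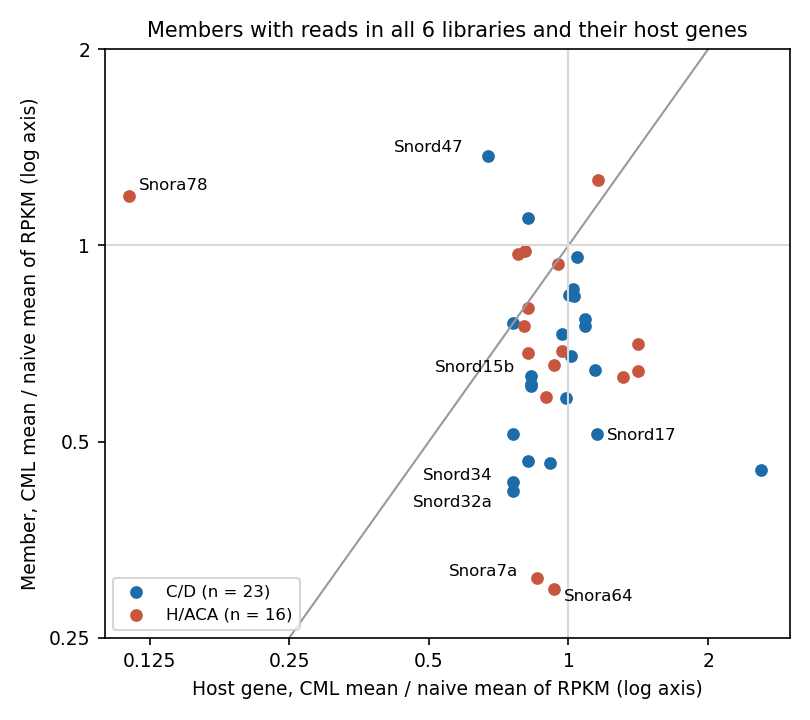
Ratio of the CML to the naive mean RPKM of each member with reads in all 6 libraries (vertical) against that of its tested host gene (horizontal), both on log axes, with lines at 1 and at equal ratios. Of 23 C/D members 20, and of 16 H/ACA members 12, lie under the line of equal ratios; Snora78 lies far to the left because its host Snhg9 was at 1.44, 0 and 0 RPKM in CML Tregs.

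The proteins that bind, build and process small nucleolar RNAs gave no called gene. Of 66 listed genes, 63 were tested, and by limma 0 passed an adjusted p of 0.05 (lowest 0.252), with 5 at an unadjusted p under 0.05, a smaller share than the 9.68% of all features. In the C/D core, 0 of 4 tested genes had an unadjusted p under 0.05: the methyltransferase gene Fbl was at 12.4, 9.81 and 24.4 RPKM in CML and 16.3, 13.7 and 11.4 RPKM in naive Tregs. The scaffold genes Nop56 and Nop58 had log2 differences of 0.035 and 0.27 (SE 0.20 and 0.37), and Nhp2l1, which binds the kink-turn of the C/D motif, of -0.15 (SE 0.43). In the H/ACA core the count was 0 of 4 as well: the pseudouridine synthase gene Dkc1 was at 28.2, 19.5 and 29.0 RPKM in CML and 24.9, 29.8 and 22.0 RPKM in naive Tregs. Its partners Gar1, Nhp2 and Nop10 had log2 differences of -0.21, 0.38 and 0.27 (SE 0.53, 0.39 and 0.47). All 8 core genes overlapped between groups, and each of them changed sign under at least 1 other scaling, weighting or omission of a library, so no direction is given.

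Among the other lists, 0 of 12 assembly genes had an unadjusted p under 0.05. Of 26 genes of the small subunit processome, the complex that builds the small ribosomal subunit around the U3 RNA, 4 did, beside 9.68% of all features. Nol10 was higher in CML (log2 difference 1.15), and Imp4 (-1.11), Nop14 (-0.95) and Rrp9 (-0.77) were lower. Of 17 genes of end processing and decay, the poly(A)-specific ribonuclease gene Parn was the 1 with an unadjusted p under 0.05, at 24.8, 16.9 and 12.3 RPKM in CML and 36.3, 44.5 and 39.5 RPKM in naive Tregs. For Imp4, Nop14, Rrp9, Nol10 and Parn the 3 CML values did not overlap the 3 naive values, and none passed the adjusted threshold. Coil, Wdr43 and Exosc9 were also lower in every CML library. Together the lists gave 7 of 63 tested genes lower and 1 higher in every CML library. Over all features tested, 12.2% were lower and 4.84% higher.

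Small RNAs of other names were looked at beside the members, as values without a test. The U3 feature Rnu3a, a C/D RNA outside the naming rule, was at 167, 162 and 164 RPKM in CML and 298, 246 and 225 RPKM in naive Tregs, a ratio of 0.641. The other U3 features, Rnu3b1 to Rnu3b4, all overlapped, with ratios of 0.650, 0.860, 0.947 and 0.679. The Cajal body RNA Scarna2 was at 398, 277 and 523 RPKM in CML and 774, 764 and 753 RPKM in naive Tregs. Of 8 Scarna features with reads in all naive libraries, 5 were lower in every CML library. The share over all tested features meeting this rule on naive reads was 12.9%. The telomerase RNA Terc, which carries an H/ACA domain, was at 4.63, 9.11 and 4.41 RPKM in CML and 13.1, 9.19 and 14.2 RPKM in naive Tregs. Among RNAs transcribed by RNA polymerase III, Rmrp was at 1046, 1237 and 1393 RPKM in CML and 2520, 2386 and 1700 RPKM in naive Tregs, and Rn7sk had a ratio of 0.669 without overlap, while Rn7s1 and Rn7s2 overlapped. Of 70 tested microRNA features that met the same rule, 27 (38.6%) were lower in every CML library, with a median ratio of means of 0.400. The share lower was 30.6% for C/D and 22.2% for H/ACA members, so lower values were not particular to the members.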

How the data were processed

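Total RNA of sorted BM Tregs was made into libraries with the SMART-Seq v4 Ultra Low Input kit and sequenced as single reads on a NextSeq instrument. The authors assembled the reads with SeqMan NGen and ArrayStar and deposited 1 table of normalized values per library; the labels name the build GRCm38 (mm10). The deposited values were taken as RPKM, computed by the authors before deposit. The sources used here do not name the unit, but value times RefSeq length came out in whole reads, within 0.05, for 100% of the members' values up to 20 reads in each library. The value 0.001 was read as no reads. Estimated depth follows from the same steps.

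Members were matched to RefSeq lengths and positions, and to GENCODE M21 strands, hosts and the sequences shown. Because the values are normalized, no count test was run: limma 3.58.1 in R 4.3.3 was fitted to log2(RPKM + 1) over 13923 features with a mean RPKM of at least 1, with Benjamini-Hochberg adjustment, after a test on simulated data. Sums of reads carry exact Poisson intervals at 95%. Replicate numbers did not pair the samples. Members, lists and comparisons were chosen with earlier results of these data known. Named members were the 6 highest of each class, those with the 5 (C/D) or 3 (H/ACA) lowest and 3 highest differences, those of hosts with 4 or more members, and those at the edge of the rule. Hosts with 4 or more members and core protein genes were also named; other names were chosen after their values were seen. Some items are left unreported. Alternatives covered pseudocount, filter, scaling, weights, the member rule and each library left out.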

Additional observations from a re-analysis of the deposited data

How the results depend on the processing

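All features past the adjusted p numbered 24 by the fit reported here. The number was 11 with a pseudocount of 10, 1 without a filter on low values, 53 after quantile normalization, 46 at a common 75th percentile, 11 without a variance trend, 45 with library weights, and 0 to 17 with 1 library left out, including 6 without CML replicate 3 and 0 without any 1 naive library. The replicate numbers gave correlations of -0.0048, -0.0016 and -0.019 between same-numbered samples and do not pair them; with a replicate block the number was 1. Host genes and listed genes past the adjusted p numbered 0 under every setting run.

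The C/D median difference was -0.59 with a pseudocount of 10 and -0.54 over members with reads in all 3 CML libraries, and lay between -1.30 and -0.77 with 1 library left out. The H/ACA median was -0.49 with a pseudocount of 10 and -0.69 over members with reads in all 3 CML libraries, and lay between -1.20 and -0.53 with 1 library left out, the latter without CML replicate 1. The median of all features moved from -0.18 to -0.36 at a common 75th percentile and to -0.0068 after quantile normalization. Relative to it, the C/D median was -0.89 here, -0.90 and -0.92 in these settings, and the H/ACA median -0.72, -0.73 and -0.71. It moved more elsewhere: the relative median was -0.52 (C/D) and -0.42 (H/ACA) with a pseudocount of 10, -0.36 and -0.51 over members with reads in all 3 CML libraries, and -0.29 for H/ACA without CML replicate 1. With 1 library left out, members lower in every CML library numbered 16 to 22 (C/D) and 6 to 12 (H/ACA; 10 without CML replicate 2 and 12 without naive replicate 3), since fewer libraries were compared. Members without CML reads numbered 4 to 10 (C/D; 10 without CML replicate 1) and 1 to 2 (H/ACA; 2 without CML replicate 1 or 2). Over members with reads in all 3 CML libraries, 8 C/D and 3 H/ACA members were lower and by construction 0 lacked CML reads; by a mean of at least 1 RPKM, 7 C/D features lacked them. The ratios of summed reads, a check added after seeing the data, lay between 0.595 and 0.641 (C/D), 0.588 and 0.645 (C/D without Snord15b) and 0.516 and 0.686 (H/ACA).

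Core protein genes, all far from the threshold, reversed as follows, and the cause was not tested. At a common 75th percentile Fbl was at -0.12 and Nop56 at -0.17 (log2). After quantile normalization Dkc1 was at 0.097. With library weights Dkc1 was at 0.12, Nhp2 at -0.029 and Nop10 at -0.30. With 1 library left out, Dkc1 reached 0.17 (-0.11 at the other end, without CML replicate 3), Nop10 -0.16 and Gar1 0.32 (CML replicate 2), Nop56 -0.034 (CML replicate 1), Fbl -0.28 and Nhp2l1 0.25 (CML replicate 3), Nop58 -0.037 (naive replicate 1), Dkc1 0.10 (naive replicate 2), and Fbl -0.042 and Nop56 -0.0058 (naive replicate 3). The highest or lowest values over such omissions were otherwise Fbl 0.34 and Nop58 0.56 (without CML replicate 2), Nop56 0.13 and Gar1 -0.64 (without CML replicate 3) and Nop10 0.77 (without CML replicate 1). Depth limits the members under about 3 reads in CML replicate 2.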
